A study of Rattus norvegicus with 4 samples.

Results

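Liver RNA was measured for 41 listed genes of complement and coagulation, chosen as rows of the deposited table whose gene symbol equals a listed name. The 41 names found 40 rows for 38 symbols, of 32545 rows in all, because C2 and C4a each had a pair of rows. C5, Kng1 and Kng2 had no row under those symbols and were not analysed here as members. Messenger RNA was sequenced from 2 libraries of sleep restriction, in rats kept under forced activity and also restricted in sleep, and from 2 libraries of forced activity alone, the control. All 4 libraries came from rat liver, and forced activity was shared by both groups. Strain, sex, age and the length of the restriction are not given in the sources used here, and nothing says whether libraries came from separate animals, so p-values measure only the spread between these libraries. The comparison asks whether adding sleep restriction to forced activity changes these transcripts.

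Complement is a chain of plasma proteases that marks and lyses microbes. It starts through the classical pathway, the lectin pathway or the alternative pathway, each of which cleaves C3, and it ends in a pore built from the terminal components. Coagulation is a parallel chain in which clotting factors activate one another until thrombin turns fibrinogen into fibrin, which plasmin later dissolves. Hepatocytes secrete most of these proteins into plasma, and several, among them the fibrinogen chains and C3, rise in the acute phase response to inflammation.

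The 3 fibrinogen genes lie side by side on chromosome 2, and their upstream sequences are shown because the chains are the textbook case of liver genes driven together by IL-6. Each run is the 250 bases before the RefSeq start site in GRCr8, read 5′ to 3′ on the gene's strand. Capitals mark the letters CTGGGA, the core of the IL-6 response element described in rat fibrinogen genes, or its reverse complement TCCCAG.
Fga (chr2:170671919-170672168, plus strand): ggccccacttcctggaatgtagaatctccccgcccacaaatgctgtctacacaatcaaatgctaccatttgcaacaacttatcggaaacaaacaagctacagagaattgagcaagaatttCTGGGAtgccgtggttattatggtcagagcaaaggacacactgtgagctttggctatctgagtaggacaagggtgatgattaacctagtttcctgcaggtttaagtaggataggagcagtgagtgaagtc
Fgb (chr2:170700876-170701125, minus strand): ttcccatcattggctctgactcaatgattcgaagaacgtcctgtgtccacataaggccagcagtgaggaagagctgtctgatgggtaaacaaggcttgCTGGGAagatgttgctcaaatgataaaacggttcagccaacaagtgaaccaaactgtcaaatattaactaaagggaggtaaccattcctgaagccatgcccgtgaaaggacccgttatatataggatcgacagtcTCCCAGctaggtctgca
Fgg (chr2:170652833-170653082, plus strand): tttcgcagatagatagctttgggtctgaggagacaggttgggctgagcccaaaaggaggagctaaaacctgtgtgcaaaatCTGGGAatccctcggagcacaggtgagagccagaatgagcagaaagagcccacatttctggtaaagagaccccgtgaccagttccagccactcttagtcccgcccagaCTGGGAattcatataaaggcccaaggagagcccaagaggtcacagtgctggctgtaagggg
The letters occurred once before Fga, starting at position -130 from the start site, at -152 and -17 before Fgb, and at -169 and -61 before Fgg. Fga had 2 RefSeq start entries, and the first was used. On either strand, CTGGGA was in 16 of the 32 member genes that had a RefSeq promoter, and in 25.8% of 27457 gene promoters of that length. GTTAAT, part of the site of the liver factor HNF1, was in 9 of the 32 and in 6.46% of all, among them Fga and Fgb. TTGCNNAA, a core of C/EBP sites, was in 13 of the 32 and in 9.2% of all. GTTAAT and TTGCNNAA do not overlap CTGGGA in these runs. These letters are a description of the windows and were not tested against the values below.

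No member differed past the threshold between sleep restriction and forced activity. Of the 40 rows, 37 passed the filter on low counts and were tested, and 0 of them were called at an adjusted p under 0.05 in edgeR's quasi-likelihood test, where 0.0201% of 4986 tested genes were called (0.0201% lower and 0% higher). DESeq2 and limma-voom also called 0 members. At an unadjusted p under 0.05 there were 2 members, C8g and F5, against 4.19% of all tested genes, and the smallest adjusted p of any member was 0.999. The median log2 change of the tested members, sleep restriction over forced activity, was -0.07, beside 0.00 over all tested genes. It was 0.06 without forced activity 1 and -0.19 without forced activity 2, so its sign and size rest on single libraries. Changes ran from -0.57 to 0.58, and 34 of 37 lay within 0.5 on either side of 0, as did 90.1% of all tested genes.

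The precision left room for moderate changes. For 32 of 37 tested members the 95% interval of the change lay inside a 2-fold change in either direction (78.4% of all tested genes). It lay inside 0.5 on the log2 scale for 9 members, and for 174 of all 4986 tested genes. The median standard error (SE) was 0.21 for members and 0.27 for all tested genes. These intervals are not adjusted over all genes, so they do not mark the smallest change that the test could call. C8g and F5 had intervals that left out 0 and were still not called. With 2 libraries against 2, changes larger than these intervals could also miss the threshold, and a missed threshold does not show equal expression. Among the tested members 25 had a negative and 12 a positive log2 change, where 47.6% of all tested genes were negative and 52.4% positive. Complement members were 15 negative and 3 positive, while clotting and fibrinolysis members were 10 negative and 9 positive. Both sleep restriction libraries lay below both forced activity libraries for 6 members (15.3% of all tested genes) and above them for 2 (17.1%), while 29 overlapped.

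**Figure D1:**
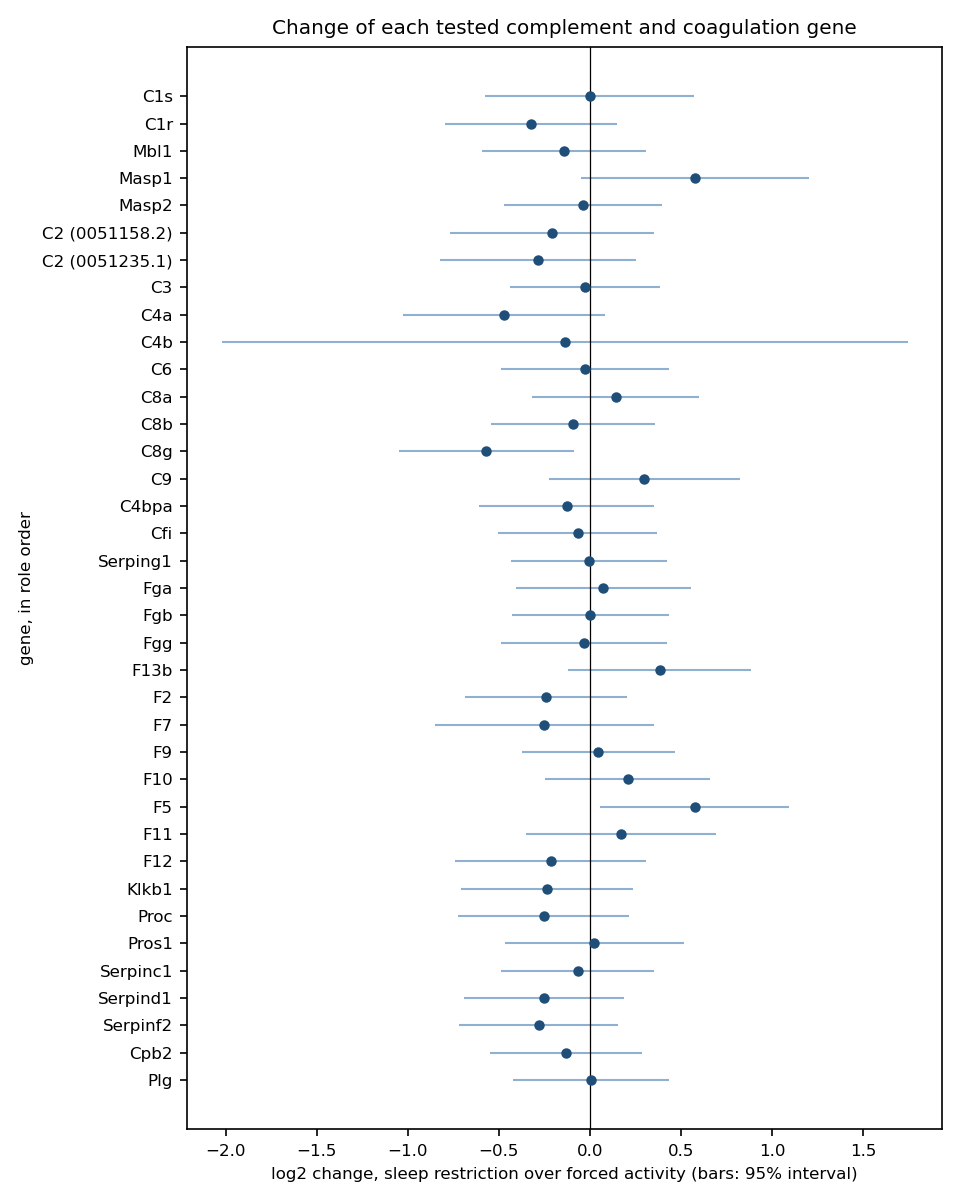
Log2 change of sleep restriction over forced activity for the 37 tested rows in role order, with the 95% interval as a bar. Points run from -0.57 to 0.58, and only the intervals of C8g and F5 leave out 0 before adjustment over all genes.

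The tabulated depth was alike, with totals of 515682.4 and 520275.6 counts for sleep restriction 1 and 2, against 508202.6 and 520204.5 for forced activity 1 and 2. Genes above 0 numbered 14105 and 10952, against 14008 and 11943 in the same order, so libraries numbered 1 listed more genes than those numbered 2. Fractions such as 0.1 count as above 0, and sleep restriction 2 held whole numbers in 32544 of 32545 rows. The numbers of genes are therefore not like for like between libraries. Normalised read counts below are CPM, counts scaled to a common library total (1000000) by trimmed mean (TMM) factors. They are not divided by transcript length, so levels are compared between libraries and not between genes. Hepatocyte markers, 8 of 8 listed, summed to 195590 and 202420 CPM in sleep restriction and 191230 and 191310 CPM in forced activity, so the markers of the labelled tissue were present in every library. In bulk liver, fewer cells of a type and less RNA per cell cannot be told apart.

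The summed level of the members differed more between the forced activity libraries than between the groups. It was 47169 and 49930 CPM in sleep restriction 1 and 2, against 54581 and 44430 CPM in forced activity 1 and 2. The forced activity libraries thus lay on either side of both sleep restriction libraries. Forced activity 1 was the highest of the 4 libraries for 23 of 37 tested members (62.2%) and the lowest for 0, while over all tested genes it was the highest for 22.6%. Forced activity 2 was the lowest for 15 of 37 (40.5%), against 27.4% over all. Forced activity 1 was likewise the highest for 8 of 14 tested acute phase proteins (57.1%) and forced activity 2 the lowest for 7 (50.0%), so the members were not alone in this. These shares are descriptions of 4 libraries and were not tested.

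The changes within same-numbered libraries therefore pointed opposite ways. The median log2 difference was -0.26 for sleep restriction 1 over forced activity 1 and 0.10 for sleep restriction 2 over forced activity 2, while over all tested genes these medians were 0.00 and 0.01. Of 37 members 21 had opposite signs in the 2 comparisons (43.9% of all tested genes), 13 were negative in both (27.4%) and 3 were positive in both (28.6%). Endothelial markers ran the other way, with 358 and 204 CPM in sleep restriction 1 and 2 and 119 and 373 CPM in forced activity 1 and 2 for the 8 of 9 listed genes that had a row, all above 0. Pecam1 had no row. Macrophage markers, 10 of 10 listed, summed to 957 and 652 CPM in sleep restriction and 608 and 788 CPM in forced activity. The 4 platelet markers, which bear on clotting genes, summed to 17.1 and 5.82 CPM in sleep restriction and 16.6 and 17.3 CPM in forced activity. The platelet sum in sleep restriction 2 equals 3 counts, and such sums are too low for a direction. The part of these cell types in the members' values was not tested.

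**Figure D2:**
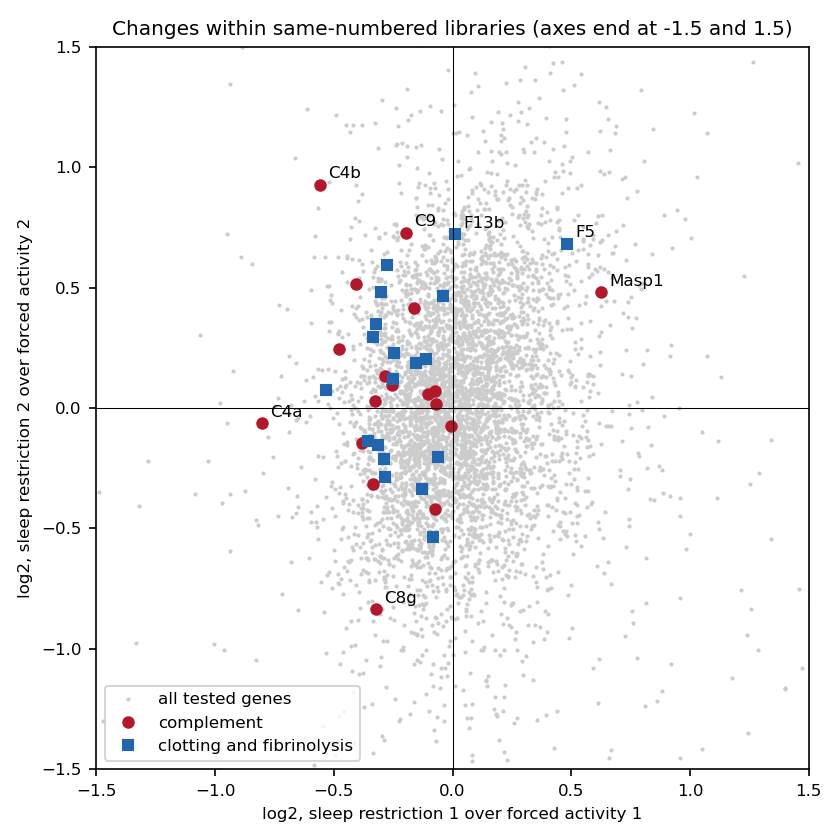
Log2 difference of sleep restriction 1 over forced activity 1 (horizontal) and of sleep restriction 2 over forced activity 2 (vertical) for the tested members, complement as circles and clotting and fibrinolysis as squares, over all tested genes in grey. Of 37 members 21 lie in the quadrants of opposite sign and only Masp1, F5 and F13b are above 0 on both axes.

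**Figure D3:**
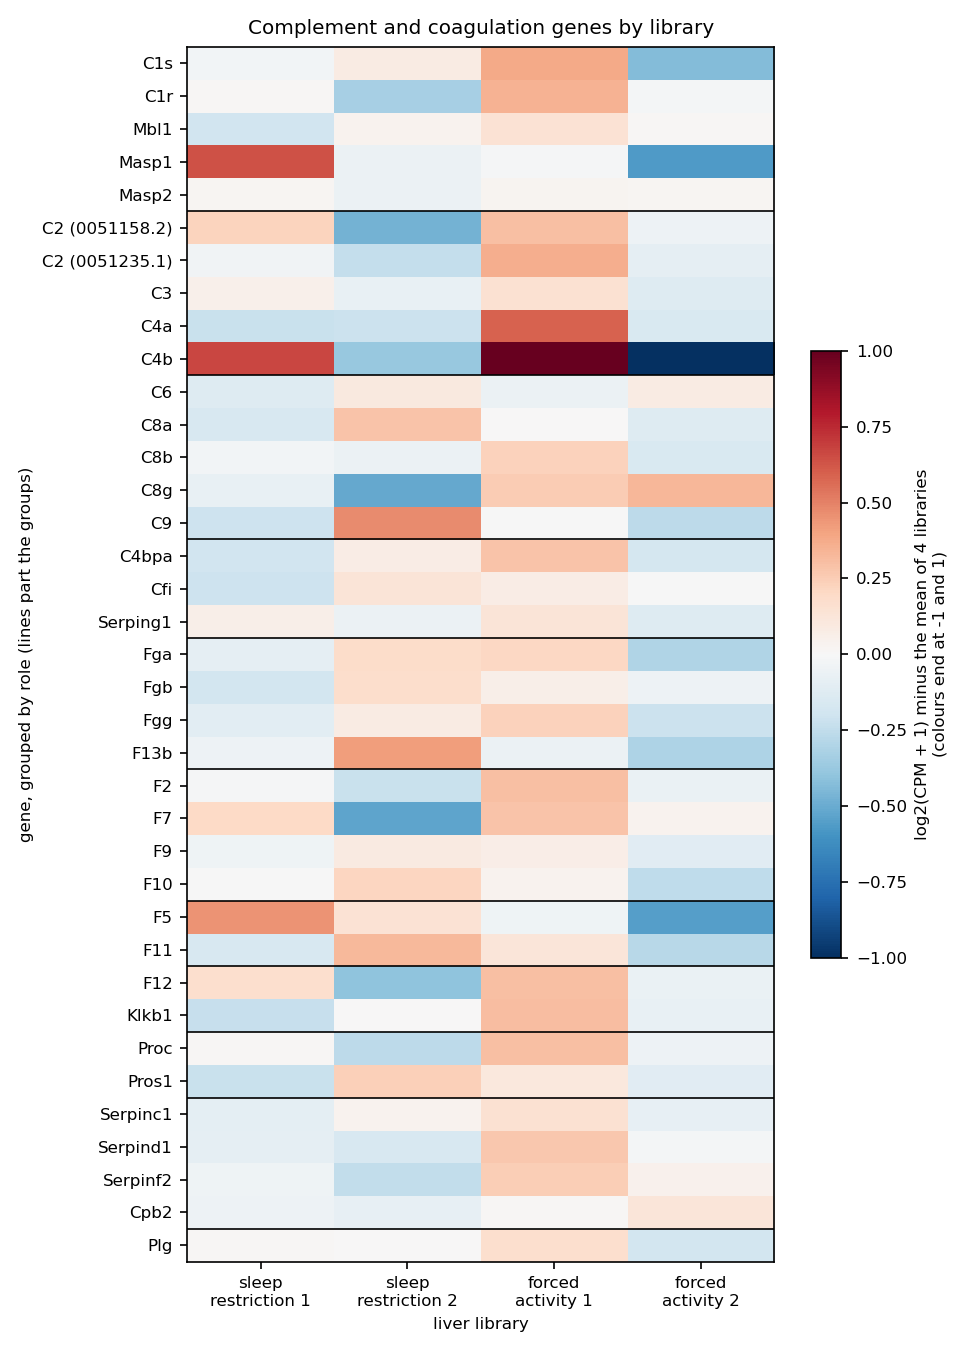
Heat map of log2(CPM + 1) minus each gene's mean over the 4 libraries, with libraries as columns and the 37 tested rows grouped by role. The column of forced activity 1 is the highest for 23 rows, and that of forced activity 2 the lowest for 15.

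Among the genes that start complement, C1r and C1s, the proteases of the C1 complex, lie 6.76 kb apart on chromosome 4. C1r measured 849.5 and 669 CPM in sleep restriction, against 1072 and 833 CPM in forced activity, a log2 change of -0.32 (95% interval -0.80 to 0.15) that was -0.52 without sleep restriction 1 and -0.13 without forced activity 1. Both sleep restriction libraries were below forced activity 1, and the groups overlapped at sleep restriction 1. C1s measured 612 and 663 CPM in sleep restriction, against 814 and 464 CPM in forced activity, so the sleep restriction libraries sat between the controls. The ratio of C1s to C1r counts was 0.721 and 0.991 in sleep restriction, against 0.759 and 0.557 in forced activity.

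The lectin pathway starts with mannose-binding lectins and their proteases. Masp1, one of those proteases, had the most positive change of all members, with 126 and 77.6 CPM in sleep restriction and 80.4 and 54.4 CPM in forced activity (log2 change 0.58, 95% interval -0.05 to 1.20, adjusted p = 0.999 in edgeR). Sleep restriction 2 lay just below forced activity 1, so the groups overlapped. The change was 0.19 at its smallest and 0.87 at its largest with 1 library left out, these being the fits without sleep restriction 1 and without forced activity 1. Masp2, its partner protease, measured 289 and 274 CPM in sleep restriction, against 289.9 and 289 CPM in forced activity. Both sleep restriction libraries were lower, sleep restriction 1 only just so. Mbl1 measured 244 and 285 CPM in sleep restriction, against 307 and 279.5 CPM in forced activity. Its log2 change was -0.26 without sleep restriction 2 and -0.045 without sleep restriction 1. Mbl2 was not tested, at 0 and 0 counts in sleep restriction and 0.1 and 1 in forced activity, where a count of 0 allows up to 3 counts.

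C3, on which the pathways converge, measured 12428 and 11430.0 CPM in sleep restriction, against 13360.0 and 10972 CPM in forced activity. Its change of -0.03 had a 95% interval of -0.44 to 0.38, and the sleep restriction libraries lay between the controls. The C4 genes, whose product joins C2 in the classical convertase, were uneven. The tested C4a row (chr20:4302347-4508214 as listed) had 212 and 213 CPM in sleep restriction, against 373 and 223 CPM in forced activity, a log2 change of -0.47 (95% interval -1.03 to 0.08). The sleep restriction libraries were both lower, yet close to forced activity 2, and without forced activity 1 the change was -0.07. C4b, whose listed interval lies almost wholly within that of C4a, had 17.1 and 8 counts in sleep restriction and 25.1 and 3.4 counts in forced activity, too few for a direction. Its interval was -2.02 to 1.75. C4a and C4b are near-identical copies, and a further C4a row had 0.2 and 0 counts in sleep restriction and 0.5 and 0 in forced activity, so how reads were split among them is uncertain.

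The C2 and factor B genes are neighbours, and their rows overlap in the table. Factor B, the protease of the alternative pathway convertase, was listed at 0.1 and 0 counts in sleep restriction and 0 and 0 in forced activity under Cfb, whose interval (chr20:4536061-4561264) covers both C2 rows. Those C2 rows span chr20:4536203-4542947 and chr20:4542340-4561152. The first measured 252 and 155 CPM in sleep restriction, against 265 and 209 CPM in forced activity (log2 change -0.21, 95% interval -0.77 to 0.35). The second measured 62.9 and 54.3 CPM in sleep restriction, against 83.0 and 60.5 CPM in forced activity (log2 change -0.29, 95% interval -0.83 to 0.25). Its change was -0.49 without forced activity 2 and -0.068 without forced activity 1. Sleep restriction 2 was the lowest of the 4 libraries in both rows. Which of these reads came from Cfb cannot be told from the table, and the low Cfb row is no measure of its expression.

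Of the terminal components, which build the lytic pore, C8g had the smallest p of all members. C8g encodes the gamma chain of C8 and measured 193 and 142 CPM in sleep restriction, against 242 and 256 CPM in forced activity. Both sleep restriction libraries were lower than both controls. Its log2 change was -0.57 (95% interval -1.05 to -0.09), which did not pass adjustment in edgeR (adjusted p = 0.999). With 1 library left out the change ran from -0.81 without sleep restriction 1 to -0.38 without sleep restriction 2. The alpha and beta chains, C8a and C8b, lie 10.4 kb apart on chromosome 5. C8a measured 1106 and 1503 CPM in sleep restriction, against 1238 and 1126 CPM in forced activity. C8b measured 633 and 619 CPM in sleep restriction, against 757 and 579 CPM in forced activity. Neither chain separated the groups. The ratio of C8g to C8b counts was 0.304 and 0.229 in sleep restriction, against 0.320 and 0.442 in forced activity, lower in both sleep restriction libraries. This ratio reuses the C8g counts, so it is no separate result, and it was not tested.

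C9, which polymerises to form the pore wall, stood out in a single library. It measured 1247 and 1990.4 CPM in sleep restriction, against 1429.9 and 1199.9 CPM in forced activity, so only sleep restriction 2 was high. The log2 change of 0.30 (95% interval -0.23 to 0.82) was -0.08 without sleep restriction 2. C6, which joins the pore early in its assembly, overlapped between the groups, with 111 and 130.0 CPM in sleep restriction and 116 and 129 CPM in forced activity. A row named Hc, which RefSeq gives as a synonym of C5, was read after the members' values were seen. It measured 538 and 627 CPM in sleep restriction, against 529.7 and 387 CPM in forced activity, with a log2 change of 0.34 (SE 0.22, adjusted p = 0.999 in edgeR). Both sleep restriction libraries were higher, sleep restriction 1 only just so, and the Hc row is outside the counts of members.

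The regulators that restrain complement overlapped between the groups. Serping1, the C1 inhibitor, measured 1036 and 958 CPM in sleep restriction, against 1092 and 912 CPM in forced activity. Cfi, the protease that cleaves C3b and C4b, measured 1066 and 1350.2 CPM in sleep restriction, against 1299 and 1231 CPM in forced activity. C4bpa, the main chain of the C4b-binding protein and a cofactor of Cfi, measured 717 and 863 CPM in sleep restriction, against 1001 and 727 CPM in forced activity. Their log2 changes were -0.01, -0.07 and -0.13, and none passed the test.

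The 3 fibrinogen chains shared 1 pattern over the libraries. Fga measured 3656 and 4413 CPM in sleep restriction, against 4504 and 3162 CPM in forced activity. Fgg measured 3372 and 3845 CPM in sleep restriction, against 4257 and 3128 CPM in forced activity. Fgb measured 4682 and 6018 CPM in sleep restriction, against 5549.8 and 5134 CPM in forced activity. In each gene sleep restriction 2 and forced activity 1 were above the other 2 libraries. Their log2 changes were 0.07 for Fga, 0.00 for Fgb and -0.03 for Fgg, with 95% intervals of -0.41 to 0.55, -0.43 to 0.43 and -0.49 to 0.42. Summed over the chains, sleep restriction 1 was below forced activity 1 by -0.29 on the log2 scale, and sleep restriction 2 was above forced activity 2 by 0.32. The ratio of Fga to Fgg counts stayed near level, at 1.08 and 1.15 in sleep restriction and 1.06 and 1.01 in forced activity. It was slightly higher in both sleep restriction libraries. That of Fga to Fgb was 0.781 and 0.733 in sleep restriction and 0.812 and 0.616 in forced activity. These ratios were not tested.

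F13b, the carrier chain of the fibrin-crosslinking factor XIII, measured 244 and 339 CPM in sleep restriction, against 242 and 204 CPM in forced activity. Both sleep restriction libraries were higher, sleep restriction 1 only just so. The log2 change was 0.38 (95% interval -0.12 to 0.88), and 0.12 without sleep restriction 2.

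F5, the cofactor that speeds thrombin formation, had the smallest p of the members with a positive change. It measured 214 and 173 CPM in sleep restriction, against 152 and 106 CPM in forced activity. Both sleep restriction libraries were above both controls, with log2 differences of 0.48 and 0.68 in the same-numbered libraries 1 and 2. The log2 change was 0.57 (95% interval 0.06 to 1.09), which did not pass adjustment in edgeR (adjusted p = 0.999). With 1 library left out it ran from 0.34 without forced activity 2 to 0.85 without forced activity 1. F11, the protease that activates factor IX, measured 211 and 295 CPM in sleep restriction, against 256 and 194 CPM in forced activity, and the groups overlapped.

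**Figure D4:**
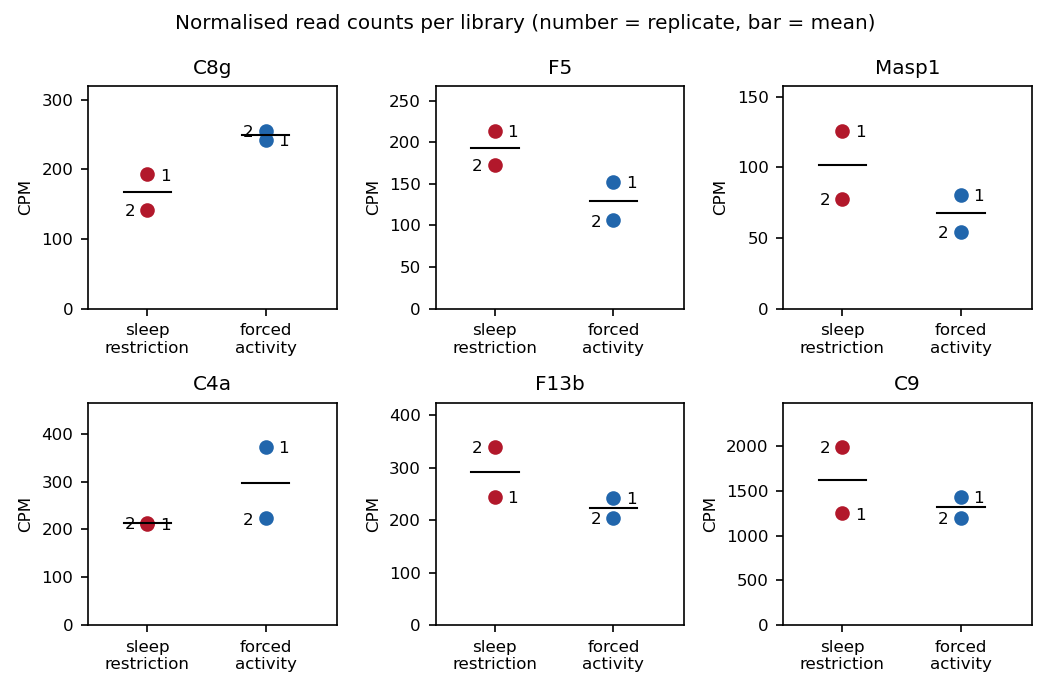
CPM in each library for C8g, F5, Masp1, C4a, F13b and C9, with sleep restriction on the left, forced activity on the right, the replicate number beside each point and a bar at the mean. C8g and C4a lie lower and F5 and F13b higher in both sleep restriction libraries, Masp1 and C9 overlap, and none passed adjustment.

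The vitamin K dependent factors carry modified glutamates that bind calcium. F2, prothrombin, measured 1873 and 1626 CPM in sleep restriction, against 2329 and 1808 CPM in forced activity, a log2 change of -0.24 (95% interval -0.69 to 0.21). Without forced activity 2 it was -0.42, and without forced activity 1 it was -0.045. F7, which starts clotting with tissue factor, measured 71.2 and 42.7 CPM in sleep restriction, against 75.6 and 63.5 CPM in forced activity. Sleep restriction 2 was the lowest, at only 22 counts, and the groups overlapped (95% interval -0.85 to 0.35). F10, which makes thrombin from F2, lies 1.4 kb from F7 on chromosome 16. F10 measured 482 and 563 CPM in sleep restriction, against 496 and 406 CPM in forced activity, with a log2 change of 0.36 without forced activity 1 and 0.064 without forced activity 2. The ratio of F10 to F7 counts was 6.77 and 13.2 in sleep restriction, against 6.57 and 6.39 in forced activity. Sleep restriction 2 alone stood apart, in a ratio that rests on its 22 counts of F7. F9, on the X chromosome, encodes a protease that activates F10 and overlapped at 1086 and 1187 CPM in sleep restriction and 1172 and 1030.5 CPM in forced activity.

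Of the contact system, F12, whose product starts contact activation, measured 607 and 407 CPM in sleep restriction, against 665 and 516 CPM in forced activity. Klkb1, plasma prekallikrein, measured 319 and 374 CPM in sleep restriction, against 463 and 355 CPM in forced activity. Their log2 changes were -0.22 and -0.24, both with overlapping groups. The change of Klkb1 was -0.42 without forced activity 2 and -0.032 without forced activity 1. Klkb1 and F11 are neighbours 4.0 kb apart on chromosome 16. The ratio of F11 to Klkb1 counts was 0.661 and 0.788 in sleep restriction, against 0.552 and 0.547 in forced activity. It was higher in both sleep restriction libraries, though the groups overlapped for each gene, and the ratio was not tested. A row named Kng1l1, a RefSeq synonym of kininogen Kng1, was read after the members' values were seen. It measured 1542 and 1705 CPM in sleep restriction, against 1438 and 1485.5 CPM in forced activity, a log2 change of 0.15 (SE 0.19), and kininogen genes are close copies. Both sleep restriction libraries were higher, as in 17.1% of all tested genes, and the Kng1l1 row is outside the counts of members.

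Of the 4 brakes on clotting and clot removal, none passed the test. Serpind1, heparin cofactor II, measured 577 and 549 CPM in sleep restriction, against 739.6 and 604 CPM in forced activity. Serpinf2, the plasmin inhibitor, measured 545 and 473 CPM in sleep restriction, against 664 and 578 CPM in forced activity. Cpb2, which protects fibrin from plasmin, measured 632 and 621 CPM in sleep restriction, against 661 and 714 CPM in forced activity. In these 3 genes both sleep restriction libraries lay below both controls, as in 15.3% of all tested genes, with log2 changes of -0.25, -0.28 and -0.13 and 95% intervals that all held 0. With 1 library left out, Serpind1 ran from -0.40 without forced activity 2 to -0.099 without forced activity 1, Serpinf2 from -0.39 without sleep restriction 1 to -0.18 without forced activity 1, and Cpb2 from -0.19 without forced activity 1 to -0.082 without forced activity 2. Serpinc1, antithrombin, overlapped at 2401 and 2640.2 CPM in sleep restriction and 2855 and 2430.4 CPM in forced activity.

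In the protein C system, which shuts off factors V and VIII, Proc measured 479.9 and 398 CPM in sleep restriction, against 588 and 461 CPM in forced activity (log2 change -0.25, 95% interval -0.72 to 0.21). That change was -0.43 without forced activity 2 and -0.069 without forced activity 1. Its cofactor Pros1 measured 247 and 341 CPM in sleep restriction, against 311 and 267 CPM in forced activity. The Pros1 row lies on chromosome 7 in the table, while RefSeq places the gene on another chromosome in GRCr8, so its identity is uncertain. The remaining 39 rows lie on the chromosome that RefSeq gives. Plg, the precursor of plasmin, overlapped at 4253 and 4231 CPM in sleep restriction and 4729.7 and 3718 CPM in forced activity, with a 95% interval of -0.42 to 0.43.

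Other genes of these pathways did not pass the test either. Of 34 listed further complement genes 20 were tested, 15 positive and 5 negative with 0 called, and a median log2 change of 0.17. That median was 0.23 for sleep restriction 1 over forced activity 1 and -0.00028 for sleep restriction 2 over forced activity 2. The signs were opposite in these comparisons for 12 of the 20. The further complement genes with the smallest p were Itgb2, the beta chain of complement receptors on leukocytes, at 0.76 (SE 0.30), and C4bpb, the minor chain of the C4b-binding protein, at -0.47 (SE 0.21). Of 31 listed further coagulation genes 10 were tested with 0 called and a median of -0.01. Hgfac, a protease related to F12, had -0.58 (SE 0.26) and Serpine2, a protease nexin, had 0.31 (SE 0.30). Among 3 tested genes of the vitamin K cycle list, Vkorc1, the epoxide reductase, had -0.20 (SE 0.21) and Cyp4f4 had -0.34 (SE 0.22), with 0 called.

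The upstream regulators and fellow acute phase genes gave no call. Of 17 tested genes of IL-6 signalling and liver transcription factors 10 were positive and 7 negative, with a median of 0.08. Hnf4a, a master regulator of hepatocyte genes including clotting factors, had 0.69 (SE 0.20), higher in both sleep restriction libraries, and Il6st, the signalling chain of the IL-6 receptor, had 0.86 (SE 0.33). Foxa2, another liver transcription factor, was read after the values were seen and had -0.74 (SE 0.30), lower in both sleep restriction libraries. Of 14 tested acute phase proteins 6 were positive and 8 negative, with a median of 0.00. Orm1 had 0.91 (SE 0.24) and Cp, the copper carrier ceruloplasmin, had 0.42 (SE 0.21). The smallest adjusted p in these lists was 0.923, for Orm1 in edgeR. At an unadjusted p under 0.05 there were 2 of the 20 further complement genes, 1 of the 10 coagulation genes, 3 of the 17 regulators, 1 of the 14 acute phase genes and 0 of the 3 vitamin K genes, against 4.19% of all tested genes.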

How the data were processed

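Per the labels' protocols, TRIzol was used to isolate RNA, and mRNA was purified, fragmented and turned into libraries with an Illumina kit. CASAVA, STAR 2.4.1d and the build rn6 appear in the submitters' processing notes without a stated use, and how reads were counted is not described. The authors deposited estimated counts per Ensembl gene, in steps of 0.1 and with nearly equal totals. Whole numbers filled 32544 of 32545 rows in sleep restriction 2 and between 19550 and 21691 rows elsewhere. The deposited table's name speaks of sense strand and an average over 10, so the values may be averages over random draws of reads. Noise in the deeper libraries would then be lower than a count model assumes.

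Values were rounded and tested in edgeR 4.0.16 (R 4.3.3) with TMM, filterByExpr (minimum count 10), robust quasi-likelihood and Benjamini-Hochberg adjustment over all genes tested, at a threshold of 0.05. Log2 changes carry a prior count of 2. The SE is the size of the change over the square root of F, and 95% intervals use it with the degrees of freedom of the test. TMM factors were 1.00 and 0.991 for sleep restriction 1 and 2, and 0.975 and 1.03 for forced activity 1 and 2. DESeq2 1.42.0 and limma-voom (limma 3.58.1) were alternatives. The test was checked on simulated whole counts, which do not copy averages over draws of reads. Members and lists were chosen with earlier results of these data known. Members are named in full. Other genes named are the pair with the smallest p in each list, and Pecam1, a marker without a row. Foxa2, Hc and Kng1l1 were added after the values were seen. All 41 names were found in RefSeq (GRCr8).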

Additional observations from a re-analysis of the deposited data

How the results depend on the processing

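All 15 alternatives were planned. Called genes numbered 1 in the reported test, and 2 with DESeq2, 0 without robust estimation, 5 without a gene filter, 5 with a replicate block and 0 to 2 with 1 library left out, in fits that take the spread of a single library from the other group. Called members numbered 0 under all 15. The members' median change ran from -0.10 to -0.04 with all libraries and from -0.19 to 0.06 with 1 left out. Nothing in the labels makes equal replicate numbers mark the same animal or day, so same-numbered libraries were not taken as paired. Their deviations correlated at 0.206 across genes, and 2 pairs are too few to settle whether they are paired. The replicate block called 0 members. Log2 changes of single members kept their sign in 385 of 406 values with all libraries and in 115 of 148 with 1 left out, and no member was called in any. The cause of the turns was not tested. C1s had 0.054 with limma-voom, 0.00045 without the 10 most abundant genes, 0.047 with the replicate block. C4b had 0.48 with limma-voom. Fgb had -0.0074 with RLE factors, -0.018 with upper-quartile factors, -0.011 with no composition factors, -0.0074 with DESeq2, -0.0078 with limma-voom, -0.023 with no filter, -0.028 with 5 CPM in 2 libraries, -7.7e-05 with unrounded values, -0.0078 with the replicate block. Plg had -0.0033 with RLE factors, -0.012 with upper-quartile factors, -0.0022 with no composition factors, -0.0033 with DESeq2, -0.022 with no filter, -0.027 with 5 CPM in 2 libraries. Pros1 had -0.0019 with no filter, -0.0065 with 5 CPM in 2 libraries. With 1 library left out, the log2 change turned its sign within these ranges: C1s -0.36 to 0.46, the first C2 row -0.60 to 0.088, C3 -0.17 to 0.12, C4b -0.96 to 1.58, C4bpa -0.35 to 0.12, C6 -0.15 to 0.073 and C8a -0.10 to 0.34. It also ran over C8b -0.28 to 0.11, C9 -0.082 to 0.59, Cfi -0.25 to 0.086, F11 -0.098 to 0.38, F12 -0.54 to 0.035, F7 -0.65 to 0.052 and F9 -0.049 to 0.14. The remaining such ranges were Fga -0.17 to 0.35, Fgb -0.20 to 0.16, Fgg -0.24 to 0.21, Plg -0.16 to 0.19, Pros1 -0.23 to 0.23, Serpinc1 -0.19 to 0.055 and Serping1 -0.14 to 0.13. C4b had 3.4 to 25.1 counts a library and an SE of 0.76, while F7, at 22 to 37.4 counts, had an SE of 0.27. The cause of the wide interval of C4b was not tested.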
